A study of Mus musculus with 69 samples.

Results

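The 6-hour response of C57 bone marrow-derived macrophages (BMDMs) to interleukin-4 (IL-4) was taken from a time course, as 2 libraries after 6 hours of IL-4 at 20 ng/ml and 2 libraries of untreated (basal) cells, 4 of the 69 samples of the series. The 4 samples were chosen by their labels alone, and no measured value entered the choice. The cells were grown from the bone marrow of female C57BL/6J mice, 8 to 12 weeks old, with M-CSF, the growth factor that drives macrophage differentiation, and carried no engineered allele. Another 3 sets of libraries served as references. They were C57 BMDMs of the same time course after 1 h and 24 h of IL-4 (2 libraries each), BMDMs of the wild-derived strain SPRET/EiJ (SPRET) at basal and 6 h (2 each), and, from a separate table, BMDMs of Egr2 fl/fl mice at basal and 6 h (2 each). The Egr2 fl/fl cells carry loxP sites around Egr2 but no Cre recombinase, so that Egr2 is intact. The spread behind the tests was estimated from all 16 libraries of each table. These also held SPRET cells and Egr2 fl/fl cells at 1 h and 24 h. The table of the Egr2 fl/fl cells further held LyzM-Cre Egr2 fl/fl cells, in which Egr2 is deleted, at basal, 1 h, 6 h and 24 h (2 each). The study's methods call the 2 libraries of a group biological replicates. Neither they nor the labels say whether these came from separate animals. The p-values measure the spread between libraries of a group, estimated over all groups in the model and pooled over genes.

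IL-4 is a cytokine of type 2 immunity. It binds the receptor chain IL4Rα together with the common gamma chain, the associated Janus kinases phosphorylate STAT6, and STAT6 dimers enter the nucleus and bind DNA. In macrophages this leads to the alternatively activated state, which is known for arginase, lectin receptors and type 2 chemokines, and which is tied to tissue repair and to parasite defence. Between the early and the late phase, transcription factors that are themselves made in response to IL-4, such as EGR2, IRF4, MYC and PPARγ, join STAT6.

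Expression was given by the authors as TPM, a measure of transcript abundance that is corrected for gene length and library size. Of 24537 genes listed, 12088 reached 1 TPM in at least 2 of the 16 libraries of the table and were tested. The C57 basal and 6 h libraries held between 8.87 M and 17.1 M tags (M, mega), and the replicates of each group correlated across genes with r of 0.989. Differences are log2 fold changes of TPM + 1 from limma, with p-values adjusted over all tested genes by the Benjamini-Hochberg method, and genes were called induced or repressed past 2-fold at an adjusted p under 0.05. On this scale a change of a gene near 1 TPM is understated. All 12 macrophage markers were expressed, with Adgre1 (the F4/80 antigen) at 924 and 895 TPM in the basal libraries and 852 and 938 TPM at 6 h, and Cd68 at 2668 and 2715, then 2790.4 and 2720.4 TPM. The summed levels of T cell, B cell, mast cell, dendritic cell, erythroid and stromal markers were each under 4 TPM in all 4 libraries, and those of endothelial markers under 7 TPM. The summed macrophage markers, mostly Lyz2, ran from 33631 to 33966 TPM in the basal and from 27815 to 29644 TPM in the 6 h libraries. Neutrophil markers summed to between 66.2 and 94.3 TPM in the basal and to between 53.7 and 63.2 TPM in the 6 h libraries, nearly all of it S100a8, while Ly6g and Ngp were at 0 in all 4 libraries.

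After 6 h of IL-4, 188 genes were induced and 69 repressed, 1.56% and 0.571% of the genes tested. On the scale of TPM + 1, 46 induced genes rose more than 4-fold and 8 more than 16-fold, whereas only 1 repressed gene, Fpr1, fell more than 4-fold. In plain TPM, Slc40a1 and Cx3cr1 also fell more than 4-fold, to 0.227 and 0.130 of their basal means. The median log2 fold change was 1.42 over the induced genes and -1.17 over the repressed genes, against 0 over all genes tested. The induced genes together took 0.724% of the listed TPM under basal conditions and 2.66% at 6 h. At an adjusted p under 0.05 and any fold, 1312 genes (10.9%) were higher and 1155 (9.55%) lower, an excess of higher genes that turned to an excess of lower genes with median-ratio scaling (1224 and 1343) and with quantile normalization (1129 and 1436). With only the 2 compared groups in the model, the counts were 697 higher and 524 lower. Counts at any fold, here and for the lists, thus depend on the spread estimated with the other libraries. Among the calls were 4 induced and 5 repressed entries of microRNAs and small nucleolar RNAs, which lie within or beside longer transcripts and cannot be told apart from them in libraries of fragmented poly(A) RNA. With a pseudocount of 0.1 TPM the repressed genes numbered 132, and with 5 TPM the counts were 109 induced and 18 repressed. With 2 libraries against 2, a two-sided exact permutation test of a single gene cannot give a p below 0.333, so that the calls rest on the spread pooled over genes by limma.

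**Figure D1:**
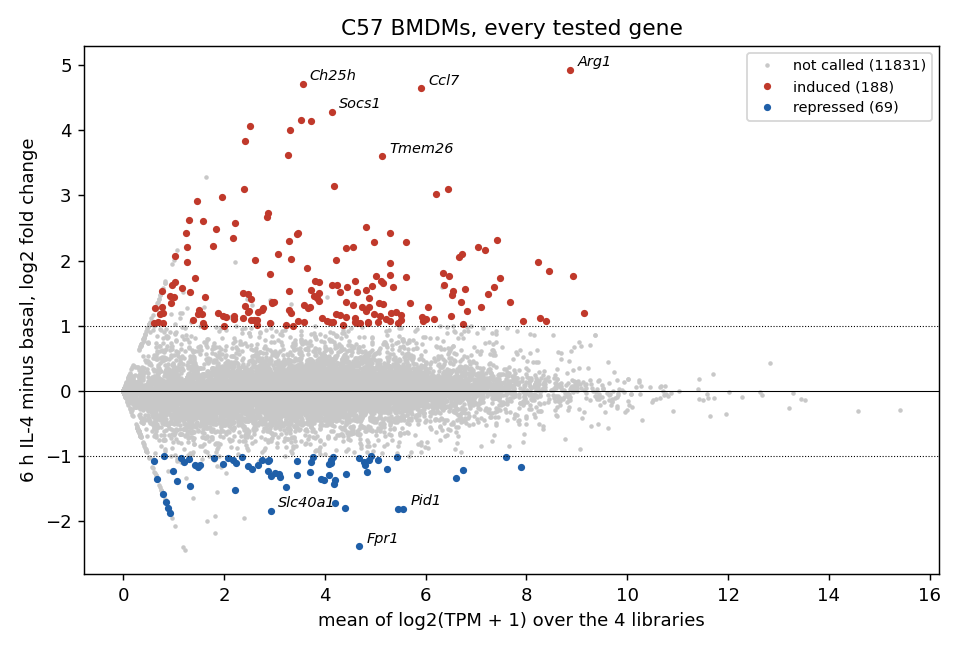
Log2 fold change of 6 h IL-4 against basal for every tested gene (y axis), by the mean of log2(TPM + 1) over the 4 C57 libraries (x axis). Red points are the 188 induced genes, blue points the 69 repressed genes and grey points the rest, with dotted lines at 2-fold. Induced genes reach a log2 fold change of 4.93 (Arg1), repressed genes -2.38 (Fpr1).

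The 12 genes with the largest rise, with the libraries of the groups apart and at least 5 TPM at 6 h, were an enzyme of arginine breakdown, an oxysterol enzyme, an amino acid oxidase, 2 SOCS family inhibitors, 2 chemokines, a homeobox factor, a PD-1 ligand, a serpin, a membrane protein and 1 gene model. Arg1, the arginase that turns arginine into ornithine and urea, was at 77.0 and 90.8 TPM in the basal libraries and at 2553 and 2592 TPM at 6 h. Its 6 h level was 30.7 times the basal mean, with a log2 fold change of 4.93 ± 0.18 (SE, adjusted p = 2.66e-09). Ch25h makes 25-hydroxycholesterol, an oxysterol that restrains cholesterol synthesis and guides immune cells. It was at 1.43 and 1.19 TPM basally and at 59.2 and 59.7 TPM at 6 h, a log2 fold change of 4.71 ± 0.15 (SE, adjusted p = 6.72e-10). Il4i1, a secreted oxidase of phenylalanine and other aromatic amino acids, went from 2.08 and 2.21 to 59.1 and 49.9 TPM, a log2 fold change of 4.14 ± 0.11 (SE, adjusted p = 1.69e-10). In each of the 3 genes the basal libraries lay close together and far below both 6 h libraries. The gene model Gm21948 (3.73 and 6.93 TPM basally, 55.9 and 50.6 TPM at 6 h, chr7:44816370-44840803 of mm10, plus strand) overlaps Il4i1 (chr7:44836288-44840809, plus strand), and the reads of these overlapping genes cannot be told apart.

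Msx3, a homeobox factor best known from the neural tube, rose from 1.25 and 1.72 to 36.6 and 41.2 TPM, with a log2 fold change of 4.01 ± 0.14 (SE, adjusted p = 2.16e-09). Pdcd1lg2, the gene of PD-L2, a ligand of the T cell inhibitory receptor PD-1, was nearly silent basally at 0.486 and 0.342 TPM and stood at 17.97 and 20.5 TPM at 6 h, with a log2 fold change of 3.84 ± 0.14 (SE, adjusted p = 2.81e-09). For Serpina3g, an intracellular serpin that inhibits cathepsins, the values were 0.183 and 0.651 TPM basally and 20.9 and 23.7 TPM at 6 h (log2 fold change 4.06 ± 0.28 SE, adjusted p = 5.48e-07). The Serpina3 genes are a cluster of close paralogs, so that some reads could belong to a neighbour. Tmem26, a transmembrane protein used as a marker of beige fat cells, was already present at 8.98 and 9.14 TPM and reached 117 and 125 TPM (log2 fold change 3.60 ± 0.08 SE, adjusted p = 3.16e-11). The remaining leading genes, Socs1, Cish, Ccl7 and Ccl12, are given with their families. Each of the 12 stayed called under every alternative setting and with each library left out in turn.

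**Figure D2:**
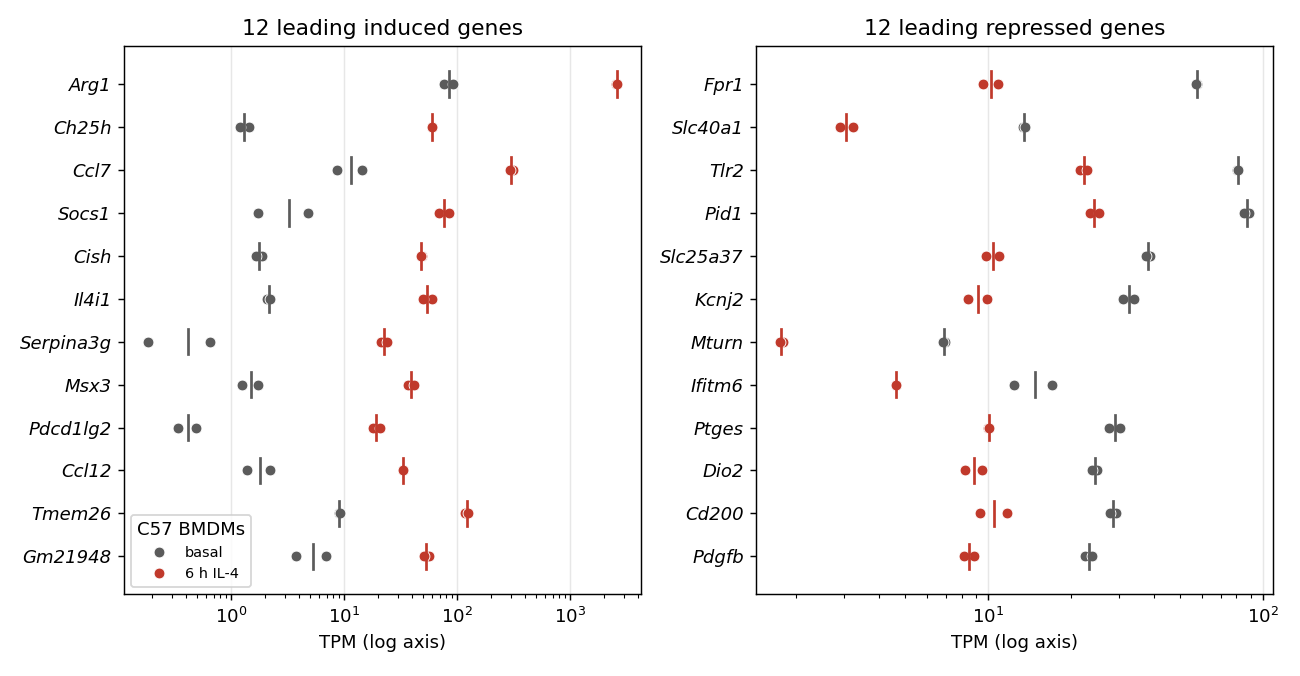
TPM of the 12 leading induced (left) and 12 leading repressed genes (right) in each of the 2 basal libraries (grey) and the 2 libraries at 6 h of IL-4 (red) of C57 BMDMs, on log axes that differ between the panels, and vertical bars are group means. Arg1 runs from a basal mean of 83.9 to 2573 TPM and Pid1 from 87.2 to 24.3 TPM, and by the rule that chose the genes the groups overlap in none.

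The gene lists used from here on were chosen with earlier results of these data known, so that their shares are no test of a group. None of the 13 tested genes of IL-4 receptor and STAT6 signalling (of 14 listed) was called, where 1.56% and 0.571% of all genes were, a number of calls at which a list of this size would hold few or none. At any fold, 2 were higher and 1 lower at an adjusted p under 0.05. Their median log2 fold change was -0.003. Stat6 was at 102 and 102 TPM basally and 97.7 and 98.0 TPM at 6 h, and Il2rg, the common gamma chain, at 285 and 286, then 259 and 271 TPM. Jak2, a kinase of many cytokine receptors, came nearest to the 2-fold limit, with 26.1 and 28.1 TPM basally and 50.6 and 54.6 TPM at 6 h (log2 fold change 0.93 ± 0.07 SE, adjusted p = 2.11e-06). The receptor chain Il4ra was at 32.1 and 34.3, then 44.4 and 42.5 TPM (log2 fold change 0.38 ± 0.07 SE, adjusted p = 0.0023). Ptpn6, the phosphatase SHP-1, was lower by less than 2-fold, with 184 and 184 TPM against 146 and 148 TPM (log2 fold change -0.32 ± 0.05 SE, adjusted p = 0.0012).

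Of the SOCS family, whose members bind receptors or Janus kinases and end cytokine signals, 3 of 8 tested genes were induced and none was repressed, against 1.56% and 0.571% of all genes tested. Socs1, the main brake on JAK signalling, stood at 1.74 and 4.79 TPM in the basal libraries and at 68.5 and 85.2 TPM at 6 h (log2 fold change 4.28 ± 0.31 SE, adjusted p = 8.96e-07). Cish, which acts on STAT5 and T cell receptor signals, was at 1.86 and 1.64, then 48.7 and 47.3 TPM, a log2 fold change of 4.15 ± 0.07 (SE, adjusted p = 1.08e-11). Socs2 was far lower, at 0.133 and 0.141 TPM basally and 2.39 and 2.91 TPM at 6 h (log2 fold change 1.68 ± 0.16 SE, adjusted p = 1.17e-05), and with a pseudocount of 5 TPM its change was under 2-fold. Socs3, a brake on IL-6 signals, was called in neither direction, at 28.7 and 33.3, then 32.1 and 33.2 TPM (log2 fold change 0.08 ± 0.08 SE, adjusted p = 0.58).

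Several transcription factors rose. Of 20 tested factors tied to the IL-4 response, 7 were induced and none was repressed, against 1.56% of all genes. Irf4, which drives alternative activation downstream of STAT6, went from 0.949 and 0.643 to 14.7 and 14.1 TPM (log2 fold change 3.10 ± 0.11 SE, adjusted p = 2.66e-09), and Batf3, a small AP-1 family factor, from 3.51 and 4.12 to 24.5 and 25.3 TPM (log2 fold change 2.43 ± 0.18 SE, adjusted p = 1.29e-06). Higher basal levels were found for Bhlhe40, a helix-loop-helix repressor needed for macrophage proliferation, at 53.4 and 54.0 TPM basally and 159.5 and 156 TPM at 6 h (log2 fold change 1.54 ± 0.04 SE, adjusted p = 1.18e-10). Tfec, a relative of MITF found in macrophages, stood at 16.5 and 16.5, then 53.1 and 63.8 TPM (log2 fold change 1.76 ± 0.07 SE, adjusted p = 5.86e-09), and the growth regulator Myc at 7.80 and 7.73, then 23.5 and 21.6 TPM (log2 fold change 1.42 ± 0.08 SE, adjusted p = 8.64e-08). Pparg, the nuclear receptor of fatty acids that marks late alternative activation, rose from 8.69 and 9.39 to 29.3 and 30.7 TPM (log2 fold change 1.63 ± 0.12 SE, adjusted p = 1.10e-06). Not called were the basally expressed Cebpb (48.4 and 69.1 TPM, then 58.1 and 51.2 TPM), Rxra (40.1 and 41.1, then 45.7 and 42.5 TPM) and Mitf (34.3 and 32.1, then 40.5 and 45.8 TPM). Bhlhe41, the partner paralog of Bhlhe40, was lower at 6 h, at 60.1 and 58.5 TPM against 95.9 and 105 TPM (log2 fold change -0.75 ± 0.09 SE, adjusted p = 6.46e-05), short of the 2-fold limit.

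Within the EGR family, zinc finger factors of the immediate response, Egr2 was the member with a substantial level. It stood at 63.2 and 64.9 TPM in the basal libraries and at 168 and 165 TPM at 6 h (log2 fold change 1.36 ± 0.06 SE, adjusted p = 1.17e-08). Egr1 was also called but at very low levels, 0.210 and 0.237 TPM basally and 1.70 and 3.12 TPM at 6 h (log2 fold change 1.45 ± 0.27 SE, adjusted p = 0.0022), and lost the 2-fold limit with a pseudocount of 5 TPM. Egr3 was under 0.2 TPM in all 4 libraries. The corepressors Nab1 (21.6 and 20.2 TPM, then 16.0 and 15.4 TPM) and Nab2 (26.8 and 26.4, then 26.3 and 23.6 TPM), which bind EGR proteins and dampen their activity, were not called.

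Effector genes of alternative activation gave the highest share, with 10 of 19 tested genes induced, none repressed (against 1.56% and 0.571% of all genes tested) and a median log2 fold change of 1.19. This list, too, was chosen with earlier results of these data known. Mrc1, the mannose receptor CD206, was at 76.7 and 75.1 TPM basally and at 366 and 403 TPM at 6 h (log2 fold change 2.32 ± 0.05 SE, adjusted p = 6.77e-11). Clec7a, the beta-glucan receptor Dectin-1, rose from 266 and 258 to 835 and 955 TPM (log2 fold change 1.76 ± 0.08 SE, adjusted p = 1.11e-08). Mgl2 and Clec10a, neighbouring lectins for galactose-type sugars that are similar in sequence, both rose. Mgl2 was at 4.60 and 3.50 TPM basally and at 19.0 and 19.8 TPM at 6 h (log2 fold change 2.02 ± 0.20 SE, adjusted p = 1.17e-05), and Clec10a at 2.17 and 1.96, then 9.34 and 13.7 TPM (log2 fold change 2.01 ± 0.15 SE, adjusted p = 1.03e-06). Chil3, the chitinase-like protein Ym1, rose from 101 and 87.0 to 276 and 292 TPM (log2 fold change 1.59 ± 0.20 SE, adjusted p = 1.21e-04), and it too has close paralogs. Cdh1, the adhesion molecule E-cadherin, went from 0.396 and 0.396 to 10.4 and 9.54 TPM (log2 fold change 2.97 ± 0.09 SE, adjusted p = 3.29e-10) and Flt1, a VEGF receptor, from 0.221 and 0.210 to 4.21 and 3.43 TPM. The matrix protein gene Fn1 was at 5.67 and 5.74, then 14.0 and 14.6 TPM. With a pseudocount of 5 TPM the last pair were under 2-fold. Retnla, which encodes the resistin-like protein RELMα and is a common marker of the state, was not called at 6 h, at 2.95 and 2.95 TPM basally and 4.01 and 4.18 TPM after IL-4 (log2 fold change 0.37 ± 0.25 SE, adjusted p = 0.35). Tgm2, Itgax, Il1rn and Cd200r1, with basal levels between 64.8 and 96.6 TPM, were not called either. Of these, Tgm2 (log2 fold change 0.60 ± 0.09 SE, adjusted p = 3.76e-04) and Itgax (0.57 ± 0.10 SE, adjusted p = 0.0015) were higher by less than 2-fold. Il1rn and Cd200r1 did not pass the test. In all, 13 of the 19 effectors were higher and none lower at an adjusted p under 0.05 and any fold.

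In arginine uptake and polyamine synthesis, 3 of 13 tested genes were induced and none repressed, against 1.56% and 0.571% of all genes tested. Beside Arg1 these were Slc7a2, the cationic amino acid transporter CAT2, which went from 25.9 and 23.5 to 207 and 210.1 TPM (log2 fold change 3.03 ± 0.06 SE, adjusted p = 3.16e-11), and Srm, spermidine synthase, with 15.5 and 16.1 TPM basally and 37.4 and 31.0 TPM at 6 h (log2 fold change 1.06 ± 0.13 SE, adjusted p = 1.13e-04). Srm passed 2-fold narrowly and was under it with a pseudocount of 5 TPM and without the first 6 h library (0.93). Ass1, which remakes arginine from citrulline, was at 83.7 and 83.1, then 76.6 and 66.9 TPM, and Sat1, which acetylates polyamines for export, at 106 and 110.1, then 125 and 139 TPM, neither of them called.

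Of 20 tested chemokines, 5 were induced and none repressed, against 1.56% and 0.571% of all genes tested. At any fold, 7 were higher and 4 lower at an adjusted p under 0.05. The largest changes were those of 3 monocyte attractants encoded on chromosome 11. Ccl7 was at 8.57 and 14.3 TPM basally and at 309 and 294 TPM at 6 h (log2 fold change 4.64 ± 0.29 SE, adjusted p = 2.26e-07), Ccl2 at 24.4 and 34.0, then 254 and 253 TPM (log2 fold change 3.09 ± 0.22 SE, adjusted p = 6.37e-07), and Ccl12 at 1.39 and 2.19, then 32.8 and 33.0 TPM (log2 fold change 3.62 ± 0.27 SE, adjusted p = 1.23e-06). These 3 genes lie within chr11:82035577-82103399 of mm10 and are similar in sequence, so that reads may be shared among them. Ccl8, their neighbour, was at 140.4 and 134 TPM basally and at 169 and 178 TPM at 6 h and was not called (log2 fold change 0.34 ± 0.34 SE, adjusted p = 0.55). Ccl4, an attractant of monocytes and T cells, reached 63.9 and 67.5 TPM from 31.6 and 29.3 TPM (log2 fold change 1.09 ± 0.20 SE, adjusted p = 0.0021). Ccl24, an eosinophil attractant, was called at a low level, 0.0720 and 0.227 TPM basally and 1.48 and 1.79 TPM at 6 h (log2 fold change 1.20 ± 0.15 SE, adjusted p = 1.07e-04). Ccl4 and Ccl24 were under 2-fold with a pseudocount of 5 TPM. The type 2 chemokines Ccl17 and Ccl22 were not called. Ccl17 was at 0 and 0 TPM basally and at 0 and 0.348 TPM at 6 h. Ccl22 was at 0.102 and 0.322, then 0.632 and 0.686 TPM (log2 fold change 0.46 ± 0.12 SE, adjusted p = 0.018). The most abundant chemokine genes of the basal libraries, Pf4 (359.6 and 363 TPM basally, 379 and 405 TPM at 6 h) and Cxcl16 (250.1 and 243, then 189 and 192 TPM), were not called.

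Other groups held 1 or 2 induced genes each, against 1.56% of all genes tested. Among 13 tested phagocytic, scavenger and Fc receptors, 2 were induced. They were the inhibitory receptor Fcgr2b, at 192 and 177 TPM basally and 630.4 and 695 TPM at 6 h (log2 fold change 1.84 ± 0.08 SE, adjusted p = 1.01e-08), and the oxidized lipoprotein receptor Olr1, at 2.84 and 2.01, then 6.95 and 7.86 TPM (log2 fold change 1.30 ± 0.17 SE, adjusted p = 1.25e-04). Olr1 was under 2-fold with a pseudocount of 5 TPM. Of these 13 receptors, 4 were higher and 3 lower at an adjusted p under 0.05 and any fold. Among 14 tested growth factor and remodelling genes, only Hbegf, an EGF receptor ligand, was induced past 2-fold, from 0.349 and 0.676 to 7.43 and 7.48 TPM (log2 fold change 2.49 ± 0.18 SE, adjusted p = 7.76e-07). Igf1, a growth factor, rose by less, from 145 and 144 to 219.9 and 242 TPM (log2 fold change 0.67 ± 0.06 SE, adjusted p = 5.54e-06). Of these 14 genes, 4 were higher and 5 lower at an adjusted p under 0.05 and any fold, and 2 were repressed past 2-fold. The stress gene Ier3 was the 1 induced gene of 12 tested immediate-early genes (47.4 and 45.8 TPM, then 169 and 153 TPM, log2 fold change 1.77 ± 0.14 SE, adjusted p = 1.68e-06). Jun, Junb, Atf3 and Zfp36, the others of highest level, did not reach 2-fold, with log2 fold changes between 0.35 and 0.66. Of the 12 immediate-early genes, 6 were higher and 4 lower at an adjusted p under 0.05 and any fold. Of 13 tested oxysterol and cholesterol genes, Ch25h alone was called, while the exporters Abca1 (55.3 and 56.5 TPM, then 33.0 and 36.0 TPM, log2 fold change -0.68 ± 0.06 SE, adjusted p = 3.34e-06) and Abcg1 (83.1 and 82.6 TPM, then 133 and 125 TPM, log2 fold change 0.63 ± 0.06 SE, adjusted p = 9.60e-06) differed in opposite directions by less than 2-fold.

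Several groups gave no call in either direction. These were interferon-stimulated genes (0 of 20 tested, median log2 fold change -0.014), MHC class II (0 of 8, 0.193), cell cycle (0 of 18, 0.17) and macrophage fusion (0 of 10, 0.279). At the 0.571% to 1.56% of calls over all genes, lists of this size would hold few or none. At any fold, limma gave an adjusted p under 0.05 for 2 higher and 2 lower interferon-stimulated genes, 2 higher MHC class II genes, 3 higher cell cycle genes, and 3 higher and 1 lower fusion genes. Ccnd1, cyclin D1 of the G1 phase, had the largest difference of the cell cycle list, at 8.81 and 9.37 TPM basally and 17.8 and 17.7 TPM at 6 h (log2 fold change 0.89 ± 0.12 SE, adjusted p = 1.33e-04). The glycolytic enzymes of high level were not called either, with Aldoa at 3050.5 and 3133, then 3109 and 2890.1 TPM and Pkm at 1755 and 1702, then 1701 and 1601 TPM.

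**Figure D3:**
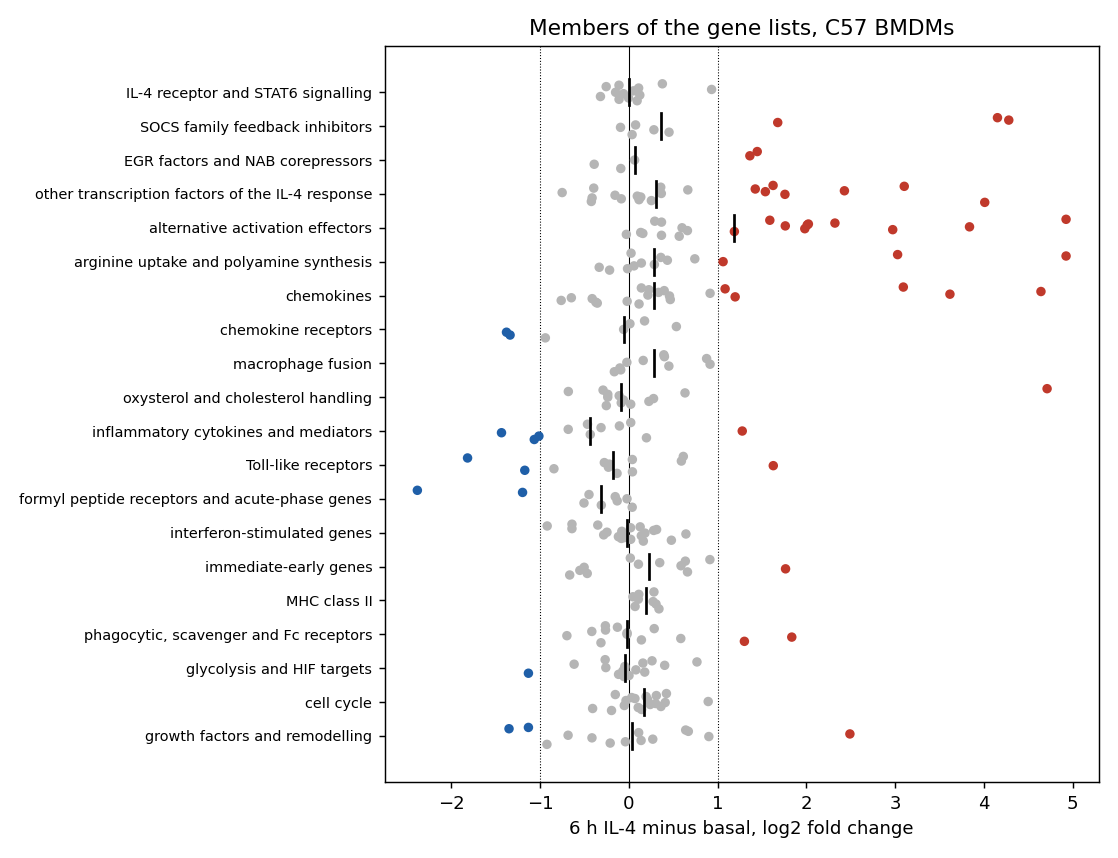
Log2 fold change of 6 h IL-4 against basal (x axis) for each tested member of the 20 gene lists (y axis). Red points are induced, blue points repressed and grey points not called, black bars are list medians and dotted lines 2-fold. The alternative activation effectors have the highest median, 1.19, and the inflammatory list the lowest, -0.434.

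The 12 leading repressed genes were innate receptors and a prostaglandin enzyme, iron transporters, and genes of diverse membrane and signalling functions. Fpr1, the receptor of bacterial formyl peptides, was at 57.7 and 57.1 TPM basally and at 9.59 and 10.9 TPM at 6 h (log2 fold change -2.38 ± 0.12 SE, adjusted p = 5.29e-08), and its paralog Fpr2 at 57.8 and 54.6, then 21.1 and 27.1 TPM (log2 fold change -1.20 ± 0.24 SE, adjusted p = 0.0036). These were the 2 repressed genes of 9 tested formyl peptide receptor and acute-phase genes, where 0.571% of all genes were repressed. Saa3, the acute-phase protein with the highest level of that list, stayed at 6235 and 6405 TPM against 6606 and 6215 TPM. Of 12 tested Toll-like receptor genes, 2 were repressed and 1 was induced past 2-fold, against 0.571% and 1.56% of all genes tested, and at any fold 4 were lower and 3 higher at an adjusted p under 0.05. Tlr2, the receptor of bacterial lipopeptides, was at 80.6 and 81.0, then 21.6 and 22.9 TPM (log2 fold change -1.82 ± 0.09 SE, adjusted p = 2.97e-08), and Cd14, the coreceptor of lipopolysaccharide, at 375 and 341, then 169.8 and 147 TPM (log2 fold change -1.17 ± 0.10 SE, adjusted p = 3.32e-06). In contrast, Tlr8, a sensor of RNA in endosomes, rose from 46.6 and 45.0 to 134 and 154 TPM (log2 fold change 1.63 ± 0.06 SE, adjusted p = 4.38e-09). Below 2-fold, Tlr13, a sensor of bacterial RNA, fell from 187 and 180.4 to 97.9 and 106 TPM (log2 fold change -0.84 ± 0.09 SE, adjusted p = 2.02e-05), and Tlr4, the receptor of lipopolysaccharide, rose from 29.5 and 29.6 to 43.7 and 46.4 TPM (log2 fold change 0.59 ± 0.07 SE, adjusted p = 3.74e-05).

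Of 11 tested inflammatory mediators, 3 were repressed and 1 was induced, against 0.571% and 1.56% of all genes tested. Ptges, the inducible synthase of prostaglandin E, fell from 30.2 and 27.5 to 9.95 and 10.1 TPM (log2 fold change -1.43 ± 0.15 SE, adjusted p = 1.82e-05), and Ptgs2, the cyclooxygenase that acts just before it, rose from 3.35 and 3.47 to 9.55 and 9.83 TPM (log2 fold change 1.28 ± 0.11 SE, adjusted p = 2.88e-06). Tnfsf9, the ligand of 4-1BB, fell from 10.1 and 9.50 to 4.113 and 4.19 TPM (log2 fold change -1.06 ± 0.14 SE, adjusted p = 1.92e-04). Nlrp3, the inflammasome sensor, fell from 26.1 and 23.1 to 12.02 and 11.3 TPM (log2 fold change -1.01 ± 0.14 SE, adjusted p = 1.95e-04), so close to the limit that it was under 2-fold without the second 6 h library (-0.97) or the first basal library (-0.93). Tnf, at 38.8 and 41.1 TPM basally and 24.9 and 24.1 TPM at 6 h (log2 fold change -0.68 ± 0.13 SE, adjusted p = 0.0024), did not reach 2-fold. With a pseudocount of 5 TPM, Ptgs2, Tnfsf9 and Nlrp3 were all under 2-fold.

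Slc40a1, ferroportin, the sole known exporter of iron from cells, was at 13.4 and 13.6 TPM basally and at 3.22 and 2.89 TPM at 6 h (log2 fold change -1.84 ± 0.16 SE, adjusted p = 5.34e-06). Slc25a37, mitoferrin, which carries iron into mitochondria, was at 38.8 and 37.6, then 10.9 and 9.84 TPM (log2 fold change -1.79 ± 0.07 SE, adjusted p = 5.97e-09). Pid1, an adaptor that hampers insulin signalling, went down from 89.1 and 85.4 to 23.4 and 25.2 TPM (log2 fold change -1.80 ± 0.07 SE, adjusted p = 2.81e-09). The potassium channel Kcnj2 stood at 33.9 and 31.0, then 8.45 and 9.91 TPM (log2 fold change -1.72 ± 0.14 SE, adjusted p = 2.02e-06), and Dio2, the enzyme that activates thyroid hormone, at 24.8 and 23.9, then 8.23 and 9.50 TPM (log2 fold change -1.37 ± 0.11 SE, adjusted p = 2.05e-06). Cd200, the ligand of an inhibitory myeloid receptor, was at 29.1 and 27.7, then 9.31 and 11.7 TPM (log2 fold change -1.36 ± 0.12 SE, adjusted p = 3.85e-06). Mturn (6.96 and 6.84 TPM, then 1.79 and 1.75 TPM) was under 2-fold with a pseudocount of 5 TPM (-0.81). For Ifitm6 (17.1 and 12.5 TPM, then 4.60 and 4.61 TPM, log2 fold change -1.48 ± 0.24 SE, adjusted p = 8.62e-04), an interferon-induced membrane protein family member, the adjusted p was 0.17 with a pseudocount of 0.1 TPM.

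Growth factors and chemokine receptors completed the repressed list members. Pdgfb, a mitogen of mesenchymal cells, was at 22.5 and 23.9 TPM basally and 8.85 and 8.14 TPM at 6 h (log2 fold change -1.35 ± 0.13 SE, adjusted p = 1.16e-05), and Vegfa, the main angiogenic factor and a HIF target, at 40.9 and 39.2, then 17.95 and 17.5 TPM (log2 fold change -1.13 ± 0.12 SE, adjusted p = 3.39e-05). Of 7 tested chemokine receptors, 2 were repressed and none induced, against 0.571% of all genes. Cxcr4, the receptor that retains cells in bone marrow, fell from 152 and 156 to 62.8 and 58.0 TPM (log2 fold change -1.34 ± 0.05 SE, adjusted p = 4.13e-09), while Cx3cr1, the fractalkine receptor, was low throughout, at 2.45 and 2.33, then 0.431 and 0.189 TPM (log2 fold change -1.38 ± 0.14 SE, adjusted p = 2.49e-05). Cx3cr1 and Vegfa were under 2-fold with a pseudocount of 5 TPM.

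Promoter sequences from RefSeq (GRCm38.p6, the assembly of mm10) were available for 9143 of the tested genes, as 250 bases before to 50 after each start. They were searched on both strands for TTC and GAA with 4 bases of any kind between them, the spacing preferred by STAT6, for TTCNNNGAA, with the shorter spacing of other STATs, for the EGR sequence GCGTGGGCG and for the AP-1 sequence TGANTCA. The 4 patterns cannot match the same bases as a whole but may overlap in part. Of 9 leading induced genes with an entry, 2 held the STAT6 pattern, Pdcd1lg2 and Tmem26, and 2 the other STAT pattern, Cish and Serpina3g. Of 9 leading repressed genes with an entry, 2 held the STAT6 pattern as well, and 1 the other STAT pattern. Over all tested genes, 6.57% of promoters held the first and 8.21% the second. These promoters are shown because they carry the pattern beside some of the largest rises, with the matched letters in capitals and the last base of each 250-base run next to the start. For Serpina3g the start of the RefSeq entry lies inside the gene as the deposited table delimits it (chr12:104214544-104241934), not at its first base. For Cish, where the match begins at the start itself, it is shown with 10 bases on each side.
Pdcd1lg2, chr19:29410669-29410918, plus strand: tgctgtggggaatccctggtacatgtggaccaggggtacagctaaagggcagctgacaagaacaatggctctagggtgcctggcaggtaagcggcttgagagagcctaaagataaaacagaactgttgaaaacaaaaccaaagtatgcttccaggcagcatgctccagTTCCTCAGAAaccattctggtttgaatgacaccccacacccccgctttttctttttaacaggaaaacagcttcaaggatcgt
Tmem26, chr10:68723496-68723745, plus strand: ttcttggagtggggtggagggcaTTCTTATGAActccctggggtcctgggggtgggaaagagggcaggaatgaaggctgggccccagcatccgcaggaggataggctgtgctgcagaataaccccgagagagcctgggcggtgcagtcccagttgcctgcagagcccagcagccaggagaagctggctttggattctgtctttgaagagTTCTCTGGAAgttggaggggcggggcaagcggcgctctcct
Serpina3g, chr12:104235897-104236146, plus strand: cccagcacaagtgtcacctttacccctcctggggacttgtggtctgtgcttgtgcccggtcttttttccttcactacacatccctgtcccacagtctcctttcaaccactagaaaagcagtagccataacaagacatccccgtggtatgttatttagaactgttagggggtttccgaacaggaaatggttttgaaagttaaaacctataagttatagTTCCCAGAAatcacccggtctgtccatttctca
Cish, chr9:107296649-107296677, plus strand: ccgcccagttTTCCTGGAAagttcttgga
Tmem26 held 2 matches, 227 and 41 bases before the start, and the match of Pdcd1lg2 lay 82 bases before it.

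The shares over all called genes were counted in the same way, with no test. Of 136 induced genes with an entry, 8.82% held the STAT6 pattern, 10.3% the other STAT pattern, 1.47% the EGR pattern and 10.3% the AP-1 pattern. Over all tested genes, 1.47% held the EGR pattern and 6.3% the AP-1 pattern. Of 49 repressed genes with an entry, 12.2% held the STAT6 pattern, Ptges and Mturn among them, with matches 197 and 171 bases before their starts. The promoter of Ptges is printed as 1 from a gene that fell.
Ptges, chr2:30903298-30903547, minus strand: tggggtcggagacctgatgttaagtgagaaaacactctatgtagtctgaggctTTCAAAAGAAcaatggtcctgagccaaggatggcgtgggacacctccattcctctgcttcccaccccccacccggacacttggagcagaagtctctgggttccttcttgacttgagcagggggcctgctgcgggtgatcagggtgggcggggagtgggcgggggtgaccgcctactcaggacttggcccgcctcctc
These matches are letters in a short window, with no measurement of binding, and Arg1, Ccl7, Gm21948, Slc40a1, Slc25a37 and Pdgfb had no entry.

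To place 6 h within the time course, the 6 h libraries were compared directly with those at 1 h and at 24 h. From 1 h to 6 h, 99 genes rose (0.819%) and 66 fell (0.546%) past 2-fold, counts that were 48 and 24 when 5 TPM was added before the logarithm, and 134 and 113 when 0.1 TPM was. The largest rises were those of Il4i1, Arg1, Pdcd1lg2 and Serpina3g. Arg1 was at 233 and 257 TPM at 1 h, and its 6 h level lay above this (log2 fold change 3.39 ± 0.18 SE, adjusted p = 1.72e-07). Il4i1 stood at 3.68 and 4.113 TPM at 1 h (log2 fold change 3.50 ± 0.11 SE, adjusted p = 3.28e-09), Pdcd1lg2 at 1.23 and 1.57 TPM (log2 fold change 3.08 ± 0.14 SE, adjusted p = 5.72e-08) and Serpina3g at 2.19 and 1.78 TPM (log2 fold change 2.97 ± 0.28 SE, adjusted p = 1.56e-05). Of the 19 tested alternative activation effectors, 9 rose past 2-fold between 1 h and 6 h and none fell past it. Chil3 at 101 and 103 TPM and Mgl2 at 3.59 and 4.65 TPM were at 1 h still near their basal values. Mrc1 at 1 h was at 114 and 115 TPM.

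Other leading genes had risen by 1 h. Cish was at 42.9 and 40.6 TPM at 1 h and did not pass the test between 1 h and 6 h (log2 fold change 0.20 ± 0.07 SE, adjusted p = 0.099). For Ccl7 the 1 h values were 288 and 306 TPM, with a 6 h minus 1 h difference of 0.02 ± 0.29 (SE, adjusted p = 0.98). Socs1 was higher at 1 h, at 155 and 220.1 TPM, than at 6 h (log2 fold change -1.26 ± 0.31 SE, adjusted p = 0.014). Myc peaked at 67.5 and 69.8 TPM at 1 h and fell to its 6 h level (log2 fold change -1.56 ± 0.08 SE, adjusted p = 1.05e-07). Egr2 stood at 197 and 199.9 TPM at 1 h, higher than at 6 h by less than 2-fold (log2 fold change -0.25 ± 0.06 SE, adjusted p = 0.012). The largest falls from 1 h to 6 h by the same conditions were those of 2 microRNA entries, Mir8116 (3.45 and 6.98 TPM at 1 h) and Mir23b (7.56 and 3.06 TPM), both listed at 0 in the 6 h libraries, and of Fpr1 (46.8 and 46.3 TPM at 1 h) and Pid1 (95.3 and 95.5 TPM). Fpr1 and Pid1 thus fell after 1 h, whereas Kcnj2 (11.6 and 10.3 TPM at 1 h), Pdgfb (6.88 and 7.66 TPM), Cxcr4 (46.7 and 43.7 TPM) and Vegfa (19.6 and 19.9 TPM) were not called between 1 h and 6 h. Among them, Cxcr4 was higher at 6 h than at 1 h by less than 2-fold (log2 fold change 0.41 ± 0.05 SE, adjusted p = 1.77e-04).

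From 6 h to 24 h, 190 genes rose (1.57%) and 243 fell (2.01%) past 2-fold, counts that were 90 and 118 when 5 TPM was added, and 255 and 401 when 0.1 TPM was. Arg1 stood at 1793 and 2156 TPM at 24 h and did not differ from 6 h beyond the test (log2 fold change -0.39 ± 0.18 SE, adjusted p = 0.12). Several of the 12 leading induced genes fell past 2-fold from 6 h to 24 h at an adjusted p under 0.05. They were Il4i1 (17.2 and 16.9 TPM at 24 h), Serpina3g (2.38 and 5.13 TPM), Msx3 (9.60 and 11.5 TPM), Socs1 (22.1 and 34.9 TPM), Ccl12 (15.8 and 13.0 TPM) and Gm21948 (20.5 and 24.6 TPM), which overlaps Il4i1. In this order, their 24 h minus 6 h log2 fold changes were -1.62, -2.35, -1.79, -1.43, -1.15 and -1.21. Pdcd1lg2 (11.9 and 11.1 TPM at 24 h, log2 fold change -0.69 ± 0.14 SE, adjusted p = 0.0027) fell by less than 2-fold. So did Tmem26 (85.7 and 92.6 TPM, log2 fold change -0.44 ± 0.08 SE, adjusted p = 8.90e-04). Ch25h was higher at 24 h by less than 2-fold (94.5 and 89.7 TPM, log2 fold change 0.62 ± 0.15 SE, adjusted p = 0.0064). In contrast, Chil3 went on to 2034 and 2022 TPM (log2 fold change 2.83 ± 0.20 SE, adjusted p = 5.31e-07) and Pparg to 77.1 and 70.6 TPM (log2 fold change 1.27 ± 0.12 SE, adjusted p = 6.31e-06). Flt1 was at 16.8 and 17.8 TPM at 24 h (log2 fold change 1.93 ± 0.10 SE, adjusted p = 3.72e-08). Of the repressed genes, Dio2 (34.4 and 32.5 TPM at 24 h) and Cd200 (36.0 and 38.9 TPM) rose again from 6 h to 24 h (log2 fold changes of 1.81 and 1.75), whereas Fpr1 went further down to 3.08 and 2.81 TPM. The 24 h libraries held 24.0 M and 5.92 M tags, the widest gap in depth of the C57 time course. S100a8 also moved between these times, from 62.4 and 51.7 to 6.02 and 7.52 TPM, and its part in the 24 h values was not tested.

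**Figure D4:**
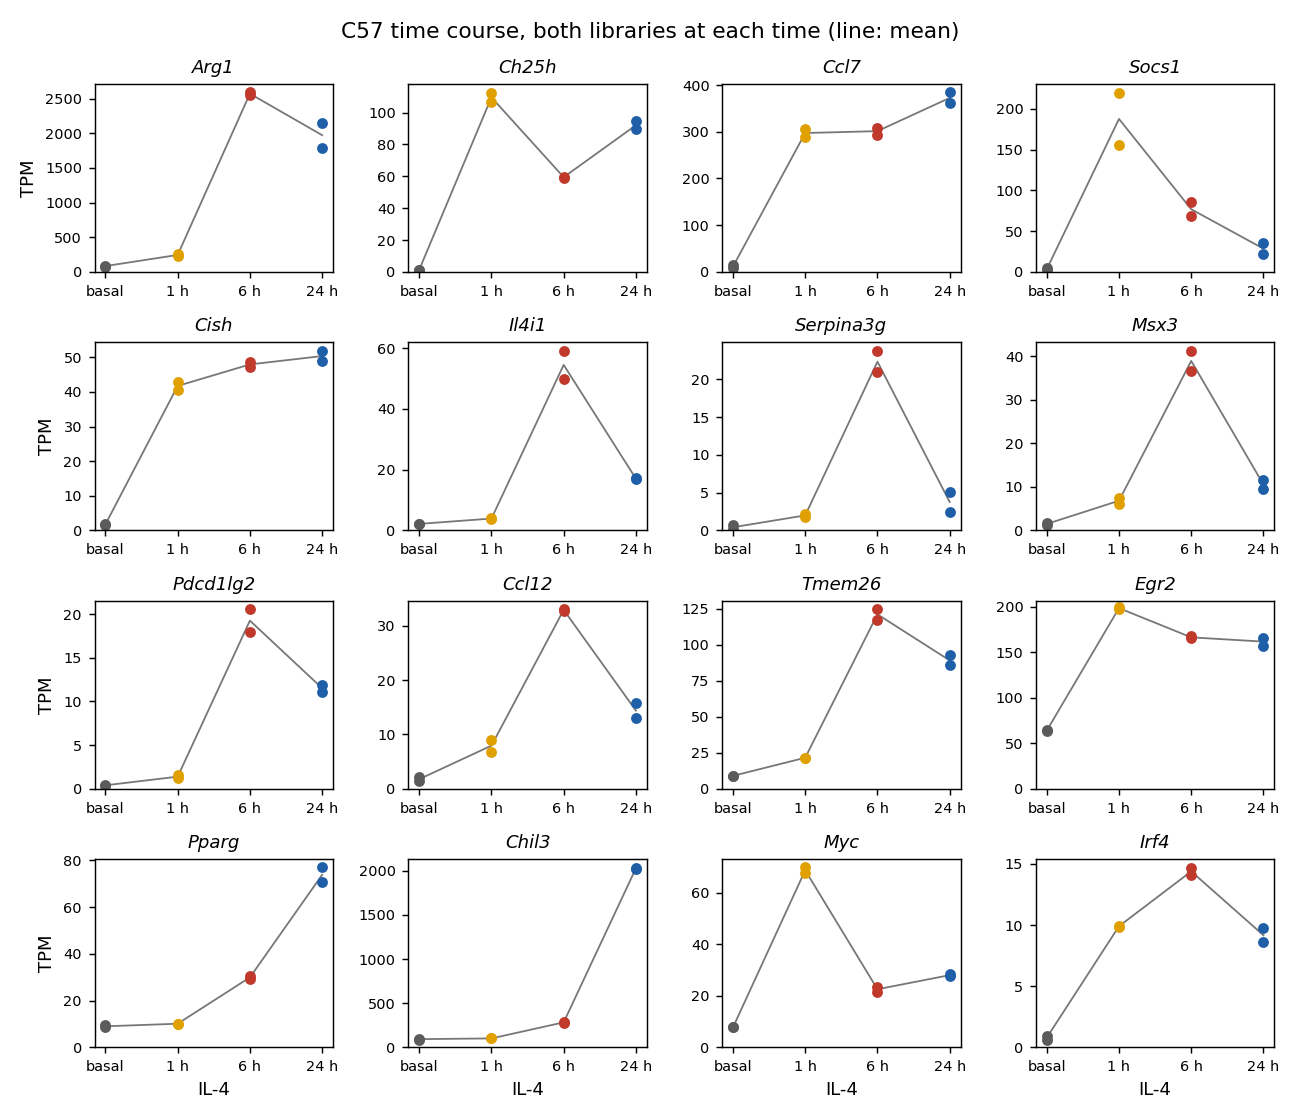
TPM (y axes, from 0 and different for each gene) of 16 induced genes in the 2 C57 libraries at basal, 1 h, 6 h and 24 h of IL-4 (x axes, not to scale in time). Points are libraries and lines join the means. Il4i1, Serpina3g and Msx3 peak at 6 h, Socs1, Myc and Egr2 are highest at 1 h, and Chil3 and Pparg are highest at 24 h.

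The same contrast in separate libraries, BMDMs of Egr2 fl/fl mice with their own basal controls, gave 240 induced (1.99%) and 105 repressed genes (0.869%) of 12079 tested, or 146 and 32 with a pseudocount of 5 TPM. Of the 186 C57-induced genes that were tested in both tables, 148 were induced there too, 79.6% of the C57 list and 65.2% of the 227 genes induced in Egr2 fl/fl cells among those tested in both. Of 67 C57-repressed genes tested in both, 37 were repressed there, 55.2% of the C57 list and 38.1% of the Egr2 fl/fl list of 97. None was called in the opposite direction. In sign alone, 185 of the 186 induced genes were higher in Egr2 fl/fl cells (57.6% of all genes tested in both were) and 64 of the 67 repressed genes were lower (42% were). Their median log2 fold changes in Egr2 fl/fl cells were 1.46 and -1.12, against 0.049 over the 11557 genes. The 4 genes of opposite sign were the small RNA entries AF357399, Mir3074-2 and Snord37, and Oip5, none with an adjusted p under 0.05 there. Across the 11557 genes, which are not independent, r between the 2 sets of fold changes was 0.704.

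Among named genes, Socs1 was at 2.70 and 4.63 TPM basally and 140.4 and 155 TPM at 6 h in Egr2 fl/fl cells, and Fpr1 at 34.8 and 34.7, then 7.15 and 6.15 TPM. Arg1 stood at 55.1 and 81.5, then 1200.3 and 1215 TPM (log2 fold change 4.15 ± 0.24 SE, adjusted p = 1.01e-07). Mgl2 reached 81.5 and 87.3 TPM there from 3.82 and 2.98 TPM (log2 fold change 4.29 ± 0.20 SE, adjusted p = 2.02e-08), and Cx3cr1 started from 31.8 and 32.4 TPM and fell to 2.10 and 1.67 TPM (log2 fold change -3.52 ± 0.11 SE, adjusted p = 9.21e-10). Retnla had a log2 fold change of 2.29 ± 0.73 (SE, adjusted p = 0.038) in that table and was called there. Fn1 stood there at 0.801 and 1.146 TPM basally and at 4.817 and 4.235 TPM at 6 h, but was not past the test (log2 fold change 1.49 ± 1.29 SE, adjusted p = 0.45). The SE of Fn1 draws on all 16 libraries of that table, LyzM-Cre Egr2 fl/fl cells included. Myc (log2 fold change 0.98 ± 0.10 SE, adjusted p = 2.55e-05) and Cxcr4 (log2 fold change -0.85 ± 0.06 SE, adjusted p = 4.11e-07) moved in the same direction as in C57 by less than 2-fold. Slc40a1 also fell in Egr2 fl/fl cells, from 51.7 and 60.4 to 12.5 and 10.5 TPM. As the tables were normalized separately, levels and responses were not tested between them.

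**Figure D5:**
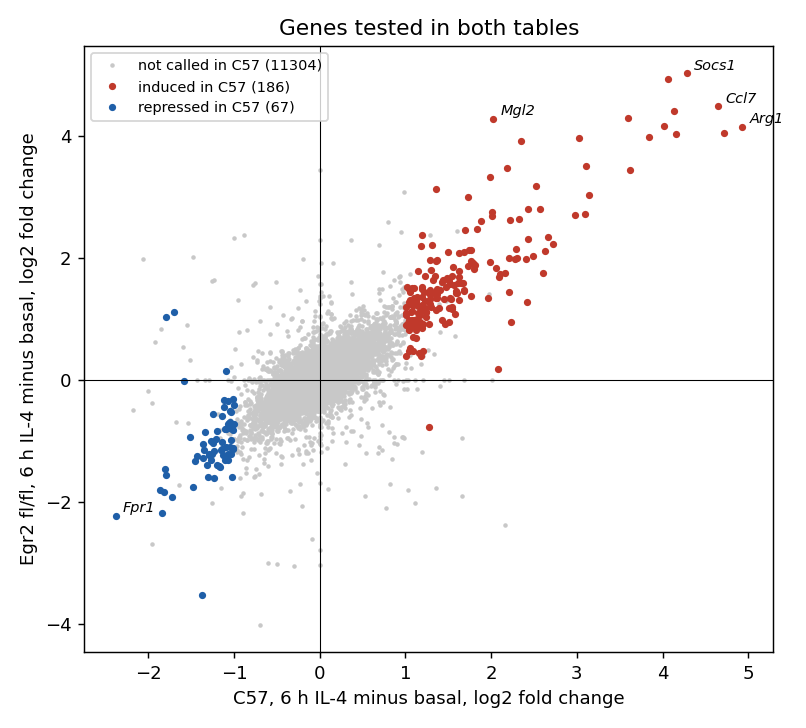
Log2 fold change of 6 h IL-4 against basal in C57 BMDMs (x axis) and in Egr2 fl/fl BMDMs (y axis) for the 11557 genes tested in both tables. Red points are the 186 genes induced in C57, blue points the 67 repressed. All induced genes but 1 lie above 0 on the y axis, and r over all genes is 0.704.

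Against SPRET, the 6 h response of 164 genes was higher and of 126 genes lower than in C57 (1.36% and 1.04% of genes tested), by the interaction contrast, or of 83 and 68 genes with a pseudocount of 5 TPM. Within the 24 leading genes, 9 differed. Msx3, at 36.6 and 41.2 TPM in C57 after 6 h, was listed at 0 in both SPRET basal libraries and at 0.0480 and 0.127 TPM at 6 h (log2 difference in response -3.89 ± 0.20 SE, adjusted p = 2.16e-07). Arg1 levels were lower in SPRET, at 2.66 and 4.49, then 178 and 166 TPM, but the response did not differ beyond the test (log2 difference in response 0.34 ± 0.26 SE, adjusted p = 0.48). Egr2 rose more in SPRET, from 13.8 and 15.8 to 145 and 149 TPM (log2 difference in response 1.87 ± 0.09 SE, adjusted p = 1.34e-07), as did Irf4, from 0.636 and 0.820 to 61.7 and 55.1 TPM (log2 difference in response 2.00 ± 0.16 SE, adjusted p = 9.74e-06). Levels can also differ between the strains through alignment to different genomes. Gapdh, a gene with many pseudogenes, was listed at 2.11 and 1.84 TPM in basal C57 and at 249 and 243 TPM in basal SPRET libraries, and the part of alignment in the gene differences was not tested.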

How the data were processed

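RNA-seq libraries were made from poly(A)-enriched RNA of BMDMs. Per the study's methods, the authors aligned reads with STAR, moved strain alignments to mm10 with MMARGE, counted with HOMER and deposited TPM values. The libraries were made with dUTP; whether the counting used strand is not given in the sources used here. In the 4 libraries TPM summed to between 621610 and 624397 over the listed genes. The tables also hold the authors' DESeq2 fold changes and p-values, which were not used. No counts per gene were used, so that precision comes from replicates and depth is known only as tags per library.

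Log2(TPM + 1) was fitted with limma 3.58.1 in R 4.3.3, 1 model over the 16 libraries of each table with a mean per group and a trended prior, for genes reaching 1 TPM in 2 or more libraries. Figures were drawn with matplotlib 3.10.9. The members and lists were chosen with earlier results of these data known. Genes were named by a rule: the 12 largest rises and falls among calls without overlap and at least 5 TPM in the higher group, the 4 largest rises and falls from 1 h to 6 h, called list members, up to 4 others per list by level, and 6 genes the study names. Others, among them Jak2, Il4ra, Retnla, Ccl8, S100a8, Adgre1, Cd68 and genes outside the lists, were named after their values were seen. The script was tested on simulated data. The tables of 5 strains, F1 crosses and human macrophages were not used here, and the 8 TPM columns of the last match no sample.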

Additional observations from a re-analysis of the deposited data

Results flagged for a closer look

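The difference in 6 h response between SPRET and C57 was tested by the interaction contrast of limma, and 9 of the 24 leading genes were past 2-fold at an adjusted p under 0.05. Lower responses in SPRET were found for Msx3 (-3.89), Serpina3g (-3.18), Ccl12 (-3.18), Ccl7 (-2.90) and Ch25h (-2.06), as log2 differences. In SPRET the 6 h levels of these genes were 0.0480 and 0.127 TPM for Msx3, 1.37 and 0.432 TPM for Serpina3g, 0.831 and 0 TPM for Ccl12, 3.06 and 4.01 TPM for Ccl7 and 24.3 and 21.9 TPM for Ch25h. Higher values were found for Il4i1 (1.39) and the overlapping Gm21948 (2.19), with Il4i1 at 487 and 461 TPM in SPRET at 6 h. For the repressed genes Dio2 (1.64) and Ifitm6 (1.23), the basal SPRET levels were 0.471 and 0.419 TPM for Dio2 and 0.703 and 0 TPM for Ifitm6. With 2 libraries a group, no single library could be compared with the spread of the rest.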

How the results depend on the processing

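All 188 induced and 69 repressed genes kept their sign under each alternative that tested them. With a pseudocount of 5 TPM the counts fell to 109 induced and 18 repressed (6 h minus basal), 48 and 24 (6 h minus 1 h), 90 and 118 (24 h minus 6 h), 146 and 32 (Egr2 fl/fl), and 83 and 68 (SPRET minus C57). With 0.1 TPM the lower counts rose to 132, 113, 401 and 166 in the first 4 comparisons. The pseudocount by construction shrinks or widens changes of low genes. Other settings (filters, median-ratio scaling, quantile normalization, only the groups compared, a robust prior) gave 172 to 189 induced and 57 to 76 repressed genes. Leaving out 1 library gave 191 to 193 induced and 62 to 99 repressed genes, of which 171 to 176 and 50 to 60 were the same genes; it assumes that the lone library varies like the others. The same replicate numbers did not pair the basal and 6 h samples (r of deviations -0.0481), and a replicate block gave 187 induced and 73 repressed genes. Between 1 h and 6 h r was 0.266, and between 6 h and 24 h it was 0.165. There the block gave 101 higher and 70 lower genes (6 h minus 1 h), and 191 and 246 (24 h minus 6 h). In the other comparisons leaving out 1 library moved no count beyond 1.5 times. Changes of genes near 1 TPM depend most on the pseudocount, and depth of single genes is unknown.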

Other observations

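Beyond the lists, the following called genes were chosen after their values were seen, one by one, and stand for no group. Tfrc, the transferrin receptor of iron uptake, rose from 388 and 358 to 809 and 902 TPM (log2 fold change 1.19 ± 0.11 SE, adjusted p = 6.51e-06), while the iron exporter Slc40a1 and the mitochondrial importer Slc25a37 fell. Also higher were Dut (3.10 and 4.45 TPM, then 21.6 and 26.8 TPM), which removes dUTP, Prps1 (6.87 and 6.81 TPM, then 22.4 and 26.4 TPM), which makes the ribose donor of nucleotides, and Upp1 (0.738 and 0.467 TPM, then 7.94 and 5.26 TPM), which cleaves uridine. Gatm, which uses arginine to make a precursor of creatine, rose from 9.52 and 10.4 to 48.2 and 50.8 TPM (log2 fold change 2.20 ± 0.07 SE, adjusted p = 6.72e-10).

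Csf1, the gene of M-CSF, rose from 11.1 and 10.3 to 33.4 and 31.7 TPM (log2 fold change 1.52 ± 0.08 SE, adjusted p = 9.00e-08), Csf3r, the G-CSF receptor, from 16.2 and 17.5 to 44.0 and 49.8 TPM, Il6st, the shared chain gp130, from 20.9 and 22.3 to 55.7 and 56.1 TPM, and Il20rb from 2.27 and 1.47 to 17.9 and 17.7 TPM. The costimulatory receptor Cd40 went from 7.88 and 7.68 to 23.4 and 24.4 TPM and the maturation marker Cd83 from 13.5 and 14.6 to 34.0 and 39.1 TPM. In the other direction, Irak3, an inhibitor of Toll-like receptor signals, fell from 40.5 and 45.9 to 16.1 and 19.2 TPM (log2 fold change -1.25 ± 0.10 SE, adjusted p = 2.70e-06), Nfkbiz from 12.4 and 12.9 to 4.44 and 4.56 TPM and Il17ra from 15.2 and 14.7 to 7.14 and 6.04 TPM. Also lower were the G protein-coupled receptors S1pr1, at 24.6 and 26.5 and then 9.21 and 10.5 TPM, Calcrl, at 15.8 and 16.1 and then 6.13 and 5.78 TPM, and Gpr141, at 19.4 and 18.8 and then 7.27 and 7.70 TPM. Gpr141 was at 30.5 and 31.4 TPM at 24 h, and its basal and 24 h levels were not tested against each other. With a pseudocount of 5 TPM, Nfkbiz, Il17ra, Calcrl and Gpr141 were under 2-fold, and Il17ra was also without the second 6 h library (-0.97). Kcnd3, a potassium channel subunit, was listed at 0 in both basal libraries and at 5.24 and 5.15 TPM at 6 h.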
